A study of Mus musculus with 6 samples.

Results

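The genes described here are 40 mouse genes that fold secretory proteins in the endoplasmic reticulum (ER), sense misfolding there through ATF6, or remove misfolded proteins by ER-associated degradation (ERAD). They were taken from a list of symbols with no threshold on a measured value, though the list was drawn up with earlier results of these data known, and all 40 were found among the 46603 gene rows of the deposited count tables. They fell into 20 folding genes (12 chaperones and co-chaperones, and 8 disulfide enzymes and their relatives), 18 ERAD genes and 2 sensors. All 40 passed the filter on low counts, out of 12767 genes tested.

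Proteins entering the ER are bound by the chaperone BiP and its partners, or, when they carry sugars, by calnexin and calreticulin, while protein disulfide isomerases join their cysteines. When unfolded protein builds up, ATF6 leaves the ER, is cut in the Golgi and enters the nucleus as a transcription factor for chaperone and ERAD genes. Proteins that cannot be folded have mannoses trimmed from their glycans, are recognised by lectins, cross the ER membrane at a ubiquitin ligase built on SEL1L and HRD1, and are pulled out by the ATPase p97 for degradation by the proteasome. In macrophages, which secrete and display many glycoproteins, these genes are expressed without added stress.

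Both groups were bone marrow-derived macrophages of C57BL/6/J mice aged 7 weeks, differentiated with 20% medium from L929 cells, a fibroblast line that supplies macrophage growth factor. On day 6 they were plated, with 800000 cells in each well, and 6 h later all received medium conditioned by cancer cells. In 3 libraries that medium held its lipids, and in 3 it lacked them, so neither group shows macrophages without conditioned medium. The comparison asked how lipids in the medium changed macrophage transcripts. The sources used here do not name the cancer cells, the way lipids were removed or the exposure time.

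Libraries held 19429022 to 25323053 counts. Macrophage markers were abundant, with 7 of 7 tested and summed levels of 28780 to 29160 CPM (counts scaled to a common library total) with lipids and 29180 to 34000 without. Lyz2 made up most of that sum, and 3 of the 7 passed the edgeR test, Itgam (1506 with and 1020 CPM without lipids) and Fcgr1 (261 and 213 CPM) higher and Cd68 (1401 and 2053 CPM) lower with lipids. Neutrophil, T cell, mast cell and erythroid markers each summed to under 1 CPM, with Ly6g, Cd3e, Cd8a, Mcpt4, Tpsb2 and all 3 erythroid genes at 0 counts. Dendritic cell markers summed to 0.498 to 1.31 CPM over both groups. Fibroblast collagen and stromal genes were present, 5 of 5 tested, at 114 to 122 CPM with lipids and 118 to 162 CPM without, and Col3a1 was lower with lipids by the same test (16.1 and 22.8 CPM). Of the 3 plasma cell markers, Mzb1 was at 0 and Jchain at no more than 0.0919 CPM, and Sdc1 made up nearly all of the 25.2 to 27.4 CPM with lipids and 46.6 to 54.6 CPM without, also lower by that test. Replicate 1 without lipids stood apart from the other libraries, at -22.96 on the second principal component of log2 CPM where the others lay from -1.17 to 13.95. In bulk RNA, fewer cells of a type and less RNA per cell cannot be told apart, and the part of these differences in the results below was not tested.

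Several promoters of these genes carry the element through which ATF6 is known to act, and the sequences are shown to let the members that hold it be compared with those that changed. RefSeq promoter windows on GRCm38.p6, running from 250 bases before to 50 after a transcription start, were found for 33 of the 40 members. Atf6, Derl1, Erlec1, Erp29, Hyou1, Manf and Ube2g2 were not matched. The ER stress response element (ERSE), spelled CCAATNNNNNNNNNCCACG and searched on both strands, was present without mismatch in 9 of 33 members (27.3%) and in 37 of all 27025 genes with a window (0.137%). Of the 9 members, 7 were folding genes and 2 were ERAD genes. The list was drawn up to include ATF6 targets, so a higher share among its members was built in and is no finding of these data. The stretches below run 5′ to 3′ on the gene's strand with the matched letters in capitals, and a motif on the opposite strand reads CGTGG first and ATTGG second.
Hspa5 (chr2:34772015-34772053, plus strand): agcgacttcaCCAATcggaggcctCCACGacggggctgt
Hsp90b1, distal (chr10:86705628-86705666, minus strand): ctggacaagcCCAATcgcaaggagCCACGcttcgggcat
Hsp90b1, proximal (chr10:86705523-86705561, minus strand): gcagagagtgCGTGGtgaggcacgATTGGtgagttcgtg
Calr (chr8:84847065-84847103, minus strand): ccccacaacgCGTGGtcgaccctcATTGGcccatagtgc
Canx (chr11:50325790-50325828, minus strand): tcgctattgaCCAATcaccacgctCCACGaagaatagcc
Creld2 (chr15:88819510-88819548, plus strand): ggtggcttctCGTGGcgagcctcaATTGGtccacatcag
Dnajc3 (chr14:118937817-118937855, plus strand): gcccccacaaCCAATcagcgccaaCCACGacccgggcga
Pdia6 (chr12:17266481-17266519, plus strand): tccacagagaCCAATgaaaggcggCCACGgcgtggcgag
Derl3 (chr10:75893232-75893270, plus strand): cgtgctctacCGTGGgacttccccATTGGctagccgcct
Syvn1 (chr19:6046522-6046560, plus strand): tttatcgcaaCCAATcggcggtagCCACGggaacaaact
Hsp90b1 was the member with 2 copies, and its distal copy begins 212 bases before the start. The copy in Hspa5 begins 65 bases before the start, and that in Syvn1 44 bases before it.

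A shorter form of the element, ERSE-II, spelled ATTGGNCCACG, occurred without mismatch in 2 of 33 members, Dnajb11 and Herpud1, and in 12 of 27025 genes (0.044%). The 8-letter core of the unfolded protein response element, TGACGTGG, whose last 5 letters are the CCACG of the ERSE read on the other strand, was in 3 members, Txndc5, Ube2j1 and Vcp, against 0.714% of genes. Of the 3 members that changed with lipids, described below, none held an exact copy of these motifs in its window. With 1 mismatch allowed, Pdia4 held an ERSE and Edem1 an ERSE-II, shown here beside the exact ERSE-II of Herpud1. Edem1 also held the 8-letter core with 1 mismatch, not shown, and Edem2 held none of these motifs. With that mismatch the ERSE was in 48.5% of members and 1.72% of genes, and the ERSE-II in 27.3% and 1.31%. For the 8-letter core the shares were 39.4% and 18.1%.
Herpud1, ERSE-II (chr8:94386367-94386397, plus strand): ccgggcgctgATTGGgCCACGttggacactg
Pdia4, ERSE with 1 mismatch (chr6:47813592-47813630, minus strand): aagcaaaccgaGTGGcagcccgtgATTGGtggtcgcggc
Edem1, ERSE-II with 1 mismatch (chr6:108828429-108828459, plus strand): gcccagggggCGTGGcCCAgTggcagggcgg
A match of letters is a description of the window and does not show that a factor binds there.

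Most of the folding and ERAD programme differed little between the media. With lipids, Pdia4, a disulfide isomerase, was higher, and Edem1 and Edem2, members of the mannosidase family that marks glycoproteins for ERAD, were lower. The test was edgeR's quasi-likelihood test, with a threshold of 0.05 on the adjusted p. These 3 were 7.5% of the members, where 11.5% of all genes tested passed. By direction, 1 member was higher and 2 were lower, against 4.58% of all genes higher and 6.87% lower. The median log2 fold change, with minus without lipids, was 0.0079 over the 40 members and -0.0032 over all genes tested. The median size of change, regardless of sign, was 0.070 log2 for the members and 0.14 log2 for all genes. The 2 sizes are not on an equal footing, since members were measured more precisely (median SE 0.063 against 0.096 log2). They were also at higher levels per exon length (median 26.5 against 5.50 RPKM, defined below). Whether they were steadier than genes of like level was not tested. For 34 of the 40 members the 95% interval of the fold change lay within a 1.25-fold difference in either direction, and for 39 it lay within 1.5-fold. The share of all genes within these limits was not computed. Derl3, the exception at 1.5-fold, was near the detection limit.

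**Figure D1:**
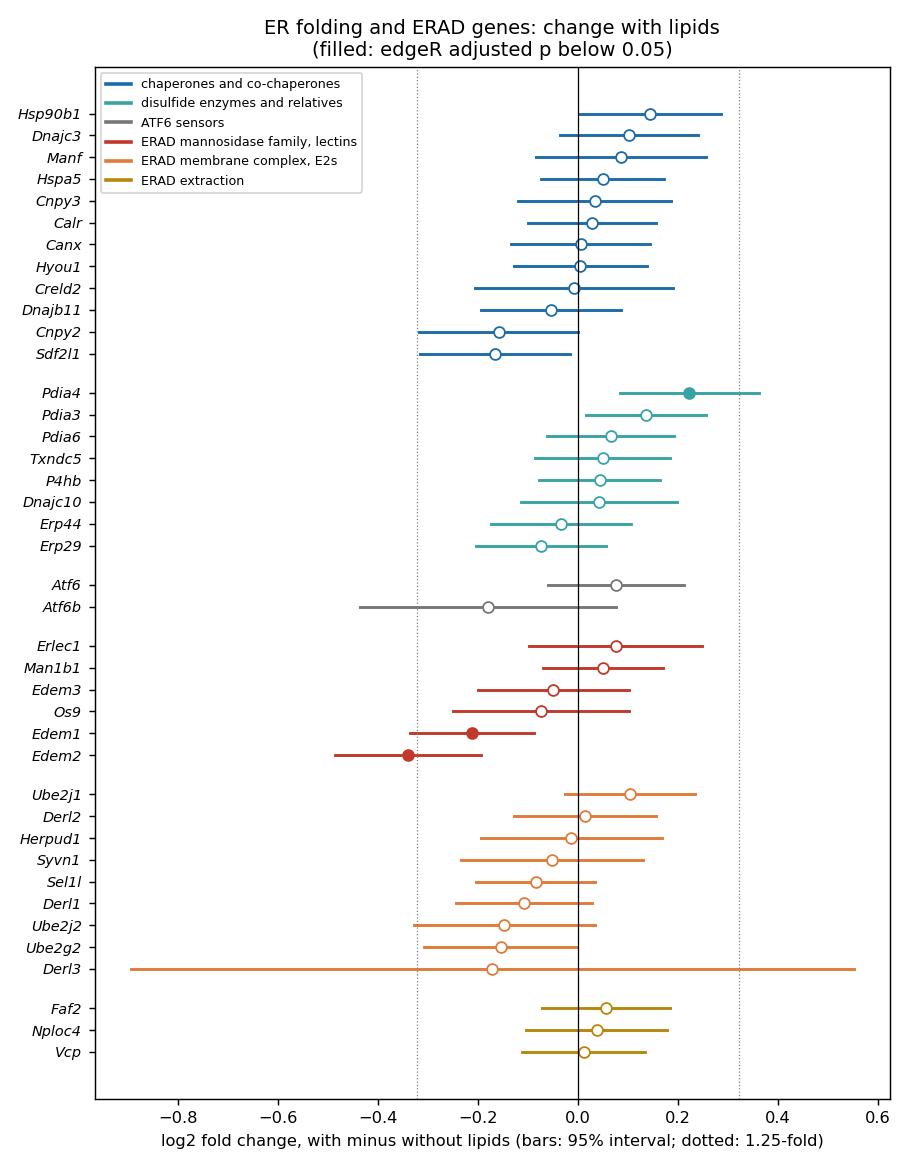
Log2 fold change of each of the 40 genes, with minus without lipids, with its 95% interval from the edgeR fit on 3 libraries per group (horizontal axis), ordered by role and size (vertical axis), where filled points passed the test. Only Pdia4, Edem1 and Edem2 are filled, and all 12 chaperone intervals lie between the dotted lines at a 1.25-fold change.

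Among chaperones and co-chaperones, 0 of 12 passed the edgeR test and 2 had an unadjusted p under 0.05, Hsp90b1 and Sdf2l1, in opposite directions. Over all 40 members 7 had such a p, where 26.6% of all genes tested did. Hspa5, which encodes BiP, the HSP70 of the ER, was at 844, 857 and 816 CPM in replicates 1, 2 and 3 with lipids and at 851, 786 and 796 CPM without. The groups overlapped, and the highest and the lowest library of the group without lipids enclosed 2 of the 3 libraries with lipids. Its log2 fold change was 0.05 (SE 0.06, 95% interval -0.075 to 0.17). Calr, the lectin chaperone calreticulin, was at 1009, 983 and 947 CPM with lipids and 950, 923 and 1011 CPM without. The libraries were interleaved, and the log2 fold change was 0.03 (95% interval -0.10 to 0.16). Canx, its membrane-bound counterpart calnexin, had a log2 fold change of 0.0046 (95% interval -0.13 to 0.14).

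Hsp90b1, the ER member of the HSP90 family also called GRP94, was at 653, 657 and 638 CPM with lipids and 634, 543 and 585 CPM without. Every library with lipids was above every library without, though replicate 1 without lipids was only just below. Its log2 fold change was 0.14 (SE 0.06) and did not pass (edgeR quasi-likelihood adjusted p = 0.178). Sdf2l1, part of the BiP co-chaperone complex, was at 47.9, 44.5 and 42.8 CPM with lipids and 49.5, 50.3 and 51.9 CPM without. Its groups did not overlap in the opposite direction, at -0.17 log2 (SE 0.07, edgeR quasi-likelihood adjusted p = 0.146). Cnpy2, a saposin-like ER protein, was also lower in every library with lipids, at -0.16 log2 (edgeR quasi-likelihood adjusted p = 0.189), while its relative Cnpy3, which helps Toll-like receptors fold, was at 0.03. The groups of CPM values did not overlap for 10 of 40 members, 5 in each direction, against 30.5% of all genes tested (14.7% higher and 15.8% lower).

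The remaining chaperone genes had overlapping groups. Hyou1, the large HSP70 relative that exchanges nucleotide on BiP, had a log2 fold change of 0.0044 with 128, 121 and 123 CPM with lipids and 127, 127 and 117 CPM without. The J-domain partners of BiP, Dnajb11 and Dnajc3, were at -0.05 and 0.10 log2. Manf, a secreted factor retained by BiP, was at 0.09, and Creld2, a stress-induced ER protein, at -0.0087. Manf shares exon bases with Dcaf1 on the other strand, which held 2305 counts against its 7120, so its value is less certain if counting ignored strand. The 9 members with an exact ERSE had log2 fold changes from -0.17 to 0.14 with a median of 0.028, and 0 of 9 passed the edgeR test (1 had an unadjusted p under 0.05, Hsp90b1). Of all 37 genes with an exact ERSE, 15 were tested, 0 passed and 3 had an unadjusted p under 0.05. Over all genes tested 11.5% passed and 26.6% had such a p, so so few genes could hold few calls either way.

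Of the 8 disulfide enzymes and relatives, 1 was higher with lipids and 0 lower. Pdia4, also called ERp72, lies on chromosome 6 (47796141 to 47813430, GRCm38). It was at 133, 130 and 132 CPM with lipids and at 119, 105 and 114 CPM without. Each library with lipids exceeded each library without, and the libraries with lipids lay close together. The log2 fold change was 0.22 (SE 0.06, edgeR quasi-likelihood adjusted p = 0.0438), an increase of 16.7%. That call was lost in 5 of the 6 fits that left out a library, with adjusted p-values of 0.142, 0.152 and 0.150 when replicate 1, 2 or 3 with lipids was dropped and 0.167 and 0.0581 when replicate 2 or 3 without lipids was. When replicate 1 without lipids was dropped the change was 0.27 (edgeR quasi-likelihood adjusted p = 0.00344). With all libraries and the replicate number as a block, Pdia4 narrowly failed (edgeR quasi-likelihood adjusted p = 0.0506).

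The other disulfide genes did not pass. Pdia3, the isomerase that works with calnexin and calreticulin on glycoproteins, was at 721, 722 and 712 CPM with lipids and 673, 623 and 666 CPM without. All 3 libraries with lipids were higher, with a log2 fold change of 0.14 (SE 0.05, edgeR quasi-likelihood adjusted p = 0.141). Pdia6 was at 0.07 and P4hb, the founding protein disulfide isomerase, at 0.04, and both groups of libraries overlapped for each. Txndc5 was at 0.05, Dnajc10, a reductase that opens disulfides of ERAD substrates, at 0.04, and Erp44, which retrieves secreted proteins from the Golgi, at -0.03. Erp29, a thioredoxin-fold protein without the active cysteines, was at -0.07. Erp29 shares 2210 exon bases with Naa25 on the other strand, which held 5415 counts against its 34521.

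**Figure D2:**
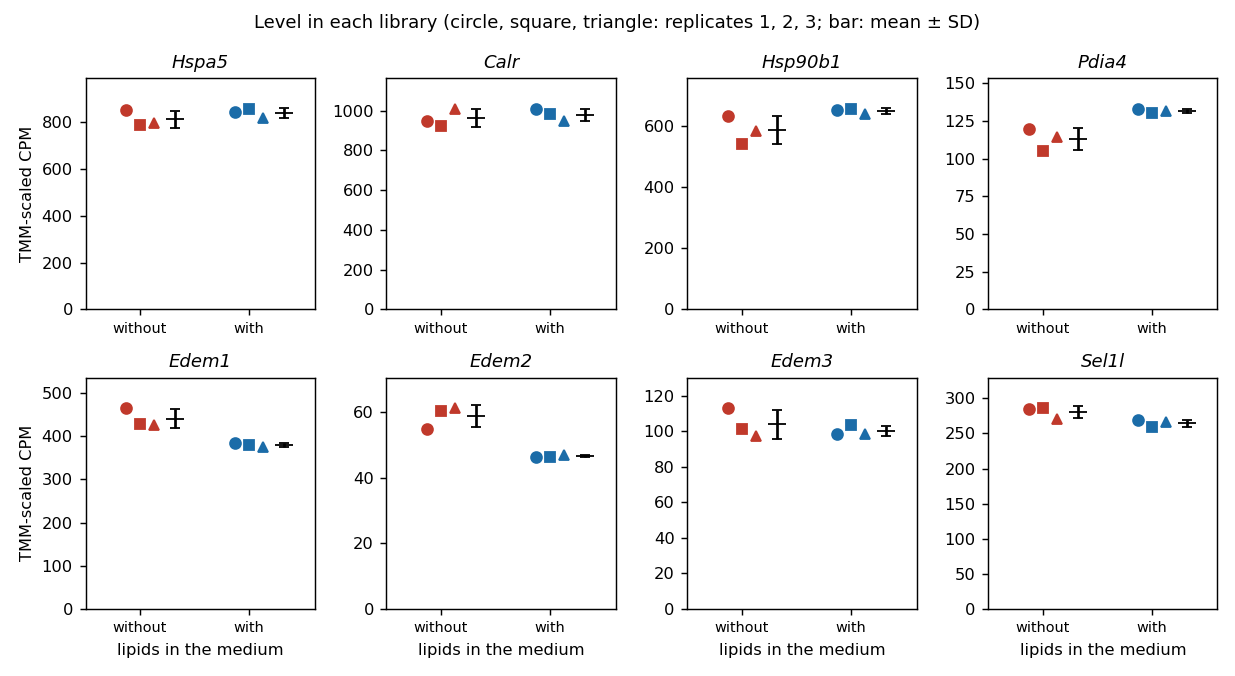
TMM-scaled CPM (vertical axis, from 0) of 8 of the genes in each library without and with lipids (horizontal axis), with symbols for replicate 1, 2 and 3 and bars for mean ± SD over 3 libraries. Hspa5, Calr and Edem3 overlap between the groups, Pdia4 is higher with lipids, and Edem1 and Edem2 are lower in all 3 libraries with lipids.

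Neither sensor gene passed the edgeR test, and 0 of 2 had an unadjusted p under 0.05. Atf6, the ER membrane precursor of the transcription factor, was at 198, 194 and 188 CPM with lipids and 197, 176 and 177 CPM without, and its log2 difference was 0.08 (95% interval -0.060 to 0.21). The groups overlapped through replicate 1 without lipids. Atf6b, its relative, was at 54.5, 48.7 and 48.6 CPM with lipids and 46.9, 68.4 and 56.7 CPM without. Replicate 1 without lipids was the lowest of all 6 libraries and replicates 2 and 3 were the highest, which gave a wide interval of -0.44 to 0.077 around -0.18. These are levels of messenger RNA, and cutting of the ATF6 protein was not measured.

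Within ERAD, the 2 lower genes both belonged to the glycan-processing group of 6. Edem1 lies on chromosome 6 (108828641 to 108859356) and Edem2 on chromosome 2 (155701677 to 155729475). They encode EDEM proteins, which promote mannose trimming of misfolded glycoproteins so that ERAD lectins can bind. Edem1 was at 385, 380 and 376 CPM with lipids and at 466, 429 and 426 CPM without. Libraries with lipids lay within a narrow range below all those without, and replicate 1 without lipids was the highest. The log2 fold change was -0.21 (SE 0.06, edgeR quasi-likelihood adjusted p = 0.0332), and the level fell by 13.7%.

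Edem2 was at 46.5, 46.3 and 47.0 CPM with lipids and at 55.0, 60.5 and 61.4 CPM without. The separation was clear in every library, with replicate 1 without lipids the nearest to the other group. It showed the largest change of the 40 genes, -0.34 log2 (SE 0.07, edgeR quasi-likelihood adjusted p = 0.00762), and the level fell by 21.0%. The call for Edem2 was lost without replicate 2 with lipids (edgeR adjusted p = 0.0559) and held when any of the other 5 libraries was dropped (largest 0.0455). For Edem1 it was lost without replicate 1, 2 or 3 with lipids (0.102, 0.157 and 0.160). It was also lost on dropping replicate 2 of the group without lipids (0.0743), and with library totals alone as the scale (-0.14, 0.139).

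Edem3, the remaining EDEM gene, was at 98.5, 104 and 98.7 CPM with lipids and 113, 101 and 97.2 CPM without. The libraries were interleaved and the log2 fold change was -0.05 (95% interval -0.20 to 0.10). Ratios between genes in the same library do not depend on how libraries are scaled. The log2 ratio of Edem1 to Edem3 was 1.97, 1.88 and 1.93 with lipids and 2.04, 2.09 and 2.13 without, and groups did not overlap. For Edem2 to Edem3 it was -1.08, -1.16 and -1.07 with lipids and -1.04, -0.741 and -0.665 without. Here replicate 1 without lipids lay next to the libraries with lipids, and the other 2 were far from them. Edem1 to Hspa5 gave -1.13, -1.17 and -1.12 with lipids and -0.869, -0.872 and -0.901 without, and its groups were well apart. Pdia4 to Pdia6 gave -0.867, -0.785 and -0.742 with lipids and -0.879, -1.08 and -0.918 without, so that replicate 1 of both groups nearly touched. Edem2 to Hspa5 gave means of -4.17 and -3.78. Each of these 5 ratios had an exact two-sided permutation p of 0.1 (0.12 adjusted over 6 ratios computed), the smallest that 3 against 3 allow, so no such ratio could pass 0.05. The groups overlapped for the last, Edem1 to Edem2 (exact two-sided permutation p = 0.4). The pairs were chosen after the values of Edem1, Edem2 and Pdia4 were known.

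**Figure D3:**
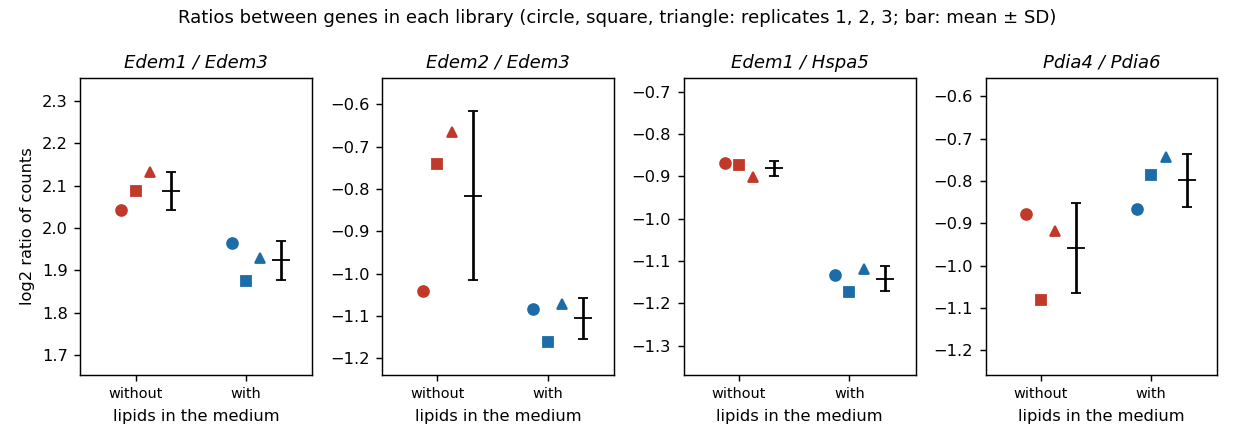
Log2 ratio of the counts of 2 genes in each library (vertical axis, the same span in each panel) without and with lipids (horizontal axis), with symbols for replicates and bars for mean ± SD over 3 libraries. The groups do not overlap in the 4 panels, and replicate 1 without lipids lies beside the libraries with lipids in the Edem2 to Edem3 panel, at -1.04, and in the Pdia4 to Pdia6 panel, at -0.879.

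The other glycan genes did not pass. Man1b1, an alpha-mannosidase that trims the first mannose, was at 0.05 log2, with every library with lipids (117 to 121 CPM) above every library without (113 to 116 CPM). Os9 and Erlec1 encode the lectins that hand trimmed glycoproteins to the ligase. Os9 was at 196, 190 and 192 CPM with lipids and 176, 222 and 212 CPM without, so that replicate 1 without lipids was below all the others and replicates 2 and 3 were above all the libraries with lipids. Its log2 fold change was -0.07 and Erlec1's 0.08, and groups overlapped for both.

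Of 9 genes for the membrane complex and its ubiquitin-conjugating enzymes, 0 passed the edgeR test, 1 had an unadjusted p under 0.05 and 7 had negative values. Sel1l, the scaffold of the ligase, was at 269, 259 and 266 CPM with lipids and 285, 287 and 271 CPM without. All 3 libraries with lipids were lower, by a small amount, at -0.09 log2 (SE 0.05, edgeR quasi-likelihood adjusted p = 0.348). Syvn1, the ubiquitin ligase HRD1, was at -0.05 and Herpud1, which recruits it and is a frequently used reporter of ER stress, at -0.01. Herpud1 was at 38.2, 42.4 and 41.5 CPM with lipids and 38.4, 39.5 and 45.4 CPM without, with no separation. Syvn1 held 5243 counts over the 6 libraries and shares exon bases with Mrpl49 on the other strand, which held 4627.

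Derl1 and Derl2 encode rhomboid-like channel proteins and were at -0.11 and 0.01 log2. Derl2 overlaps Mis12 on the other strand, which held 8712 counts against 9046. Derl3 was at 0.346 to 0.562 CPM with lipids and 0.414 to 0.637 CPM without, and its interval ran from -0.90 to 0.55. The floor, set at 3 counts as an approximate upper limit for a count of 0, was at 0.115 to 0.159 CPM. The conjugating enzymes Ube2g2, Ube2j2 and Ube2j1 were at -0.16, -0.15 and 0.10. Ube2g2 had an unadjusted p of 0.0469, and its replicate 1 without lipids, at 63.9 CPM, lay among the libraries with lipids (61.2 to 64.0 CPM) while replicates 2 and 3 were at 74.2 and 70.8 CPM. None of the 3 extraction genes passed or had an unadjusted p under 0.05, with Vcp, the ATPase p97, at 0.01, its cofactor Nploc4 at 0.04 and Faf2, which anchors p97 at the membrane, at 0.06. Vcp was at 112, 112 and 113 CPM with lipids and 110, 115 and 109 CPM without, and its groups overlapped.

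Set side by side, folding genes had 14 of 20 positive values and a median log2 fold change of 0.037, and ERAD genes had 11 of 18 negative values and a median of -0.051. All genes tested had a median of -0.0032 and negative values for 50.8%. Summed over the 20 folding genes the level was 6100, 6093 and 5925 CPM with lipids and 6021, 5651 and 5807 CPM without, and the groups overlapped. Over the 18 ERAD genes it was 1972, 1958 and 1971 CPM with lipids and 2065, 2104 and 2045 CPM without, lower in all 3 libraries with lipids. Edem1 and Edem2 made up much of that gap. Without them the 16 others summed to 1540 ± 8.49 CPM (SD, n = 3) in the presence of lipids and 1572 ± 37.1 CPM (SD, n = 3) in their absence, with a median of -0.032, a trimming chosen after the values were seen. With library totals alone as the scale, the medians were 0.11 for folding, 0.026 for ERAD and 0.074 for all genes. The sign for ERAD thus depended on the scale, while its place below all genes and that of folding above them did not change under that scale. No test of the gap between the gene groups was made.

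**Figure D4:**
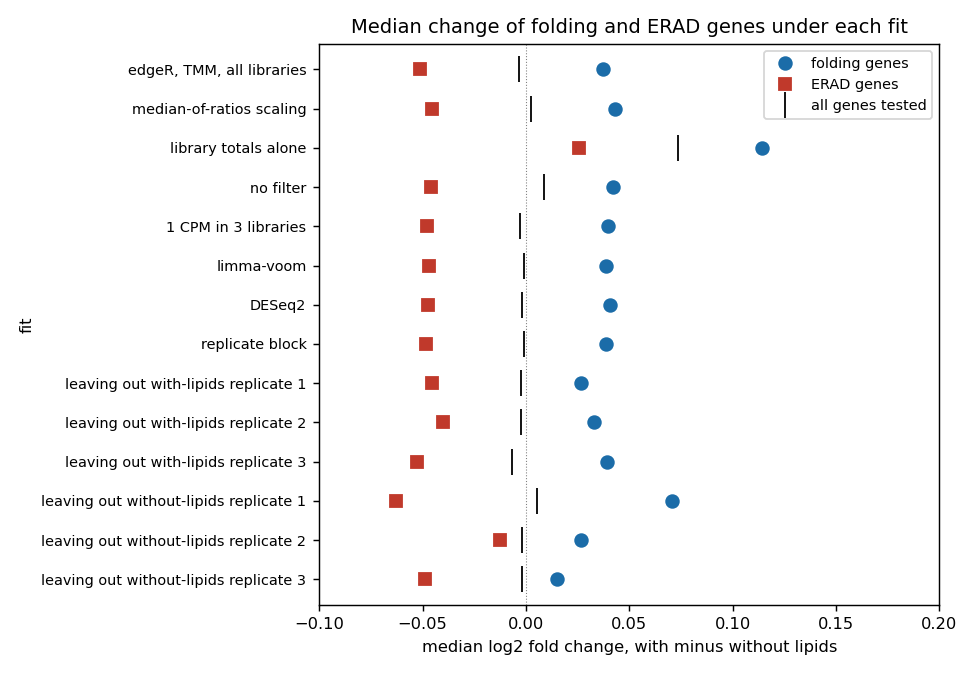
Median log2 fold change, with minus without lipids (horizontal axis), of the 20 folding genes, the 18 ERAD genes and all genes tested, under each fit (vertical axis). Folding medians lie to the right of ERAD medians in all 14 fits, and the ERAD median is positive, at 0.026, only with library totals alone.

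The number of changed members depended on replicate 1 without lipids. Without that library 4 members were higher, Hsp90b1, Dnajc3, Pdia3 and Pdia4, and 5 were lower, Atf6b, Edem1, Edem2, Os9 and Ube2g2. That is 22.5% of the members, while the share of all genes that passed went to 27.2% (12.0% higher and 15.1% lower). All 4 higher members were folding genes and 4 of the 5 lower ones were ERAD genes. The medians were then 0.071 for folding and -0.063 for ERAD. Among the 20 folding genes, replicate 1 was the highest of its group for 12, the lowest for 5 and in the middle for 3. Among the 18 ERAD genes it was the highest for 5, the lowest for 8 and in the middle for 5. The shares over all genes were not computed. In the fits without replicate 2 or 3 of the same group the folding medians were 0.027 and 0.015, and 0 folding genes passed. Of the 40 members the test called 1, 0 and 1 when replicate 1, 2 or 3 with lipids was dropped (5.7%, 4.96% and 5.62% of all genes), and 1 and 2 when replicate 2 or 3 without lipids was (5.55% and 11.7%). On the scale of library totals alone, 3 members were higher and 1 lower, beside 9.72% and 4.67% of all genes (14.4% together). Pdia4, Edem1 and Edem2 were the members called under median-of-ratios scaling, no filter, a filter at 1 CPM in 3 libraries, DESeq2 and limma-voom, where 11.5%, 9.82%, 12.3%, 12.6% and 11.3% of all genes were. Edem2 alone was called at an adjusted p of 0.01 (5.17% of all genes, 1.69% higher and 3.48% lower). With the replicate number as a block, Edem1 and Edem2 were called, beside 12.9% of all genes (5.6% higher and 7.34% lower). Libraries without lipids also varied more, with a median coefficient of variation over members of 5.86% against 2.73% with lipids (9.44% and 5.14% over all genes tested).

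Levels per exon length, as CPM divided by exon length in kilobases (RPKM), showed folding genes to be the more abundant class. Exon length was that of all annotated exons of a gene merged, such as 9060 bases for Erp29. It can exceed the length of the transcripts expressed, so ranks between genes are approximate. Calr was highest at 340 RPKM with lipids and 334 without, followed by Pdia3, P4hb, Hspa5, Hsp90b1 and Canx, all above 130 RPKM. Over both groups Calr exceeded 99.3% of tested genes. The first ERAD genes were Os9 at 75.3 RPKM and Edem1 at 63.6 RPKM, means over both groups. Edem1 was thus well above its relatives Edem3 at 16.0 and Edem2 at 15.2 RPKM. Median levels were 38.1 RPKM for folding, 19.6 for ERAD and 5.50 for all genes tested. The ligase Syvn1 was at 8.38 RPKM, and Derl3 was lowest at 0.249 RPKM.

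**Figure D5:**
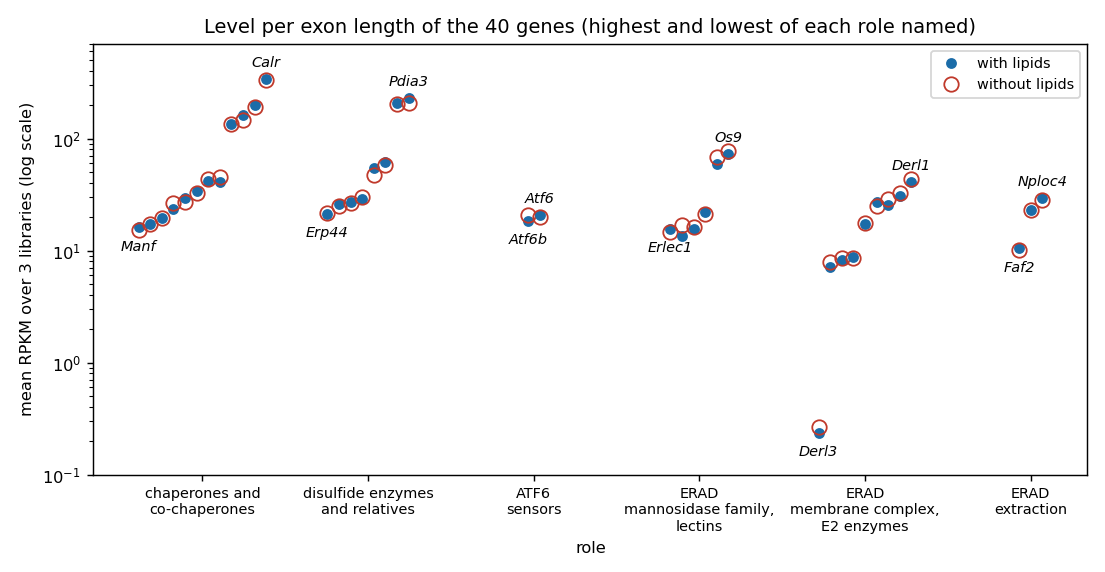
Mean level per exon length over 3 libraries in RPKM (vertical axis, log scale) of the 40 genes with lipids (filled) and without (open), by role (horizontal axis), with the highest and lowest gene of each role named. Calr, Pdia3, P4hb, Hspa5, Hsp90b1 and Canx form an upper group above 130 RPKM, and Derl3 lies far below the rest at 0.235 RPKM with lipids and 0.264 RPKM without.

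Among other genes of these pathways, 6.67% of the further folding genes and 7.5% of the further ERAD genes passed, beside 11.5% of all genes tested. Of 30 further folding genes tested, 1 was higher, Cnpy4 at 0.33 log2 (SE 0.06, edgeR quasi-likelihood adjusted p = 0.0068), and 1 lower, Tmx4, a membrane thioredoxin, at -0.305 (0.0471). Cnpy4, of the same family as Cnpy2 and Cnpy3, was at 44.7, 43.7 and 44.2 CPM with lipids and 35.6, 34.3 and 35.2 CPM without. Its groups were far apart, and it passed in all 6 fits that left out a library. Of 40 further ERAD genes, Man1a, a Golgi mannosidase, was higher at 0.24 (0.0487), and Selenok, a selenoprotein of the p97 complex, and Fbxo6, which recognises glycoproteins in the cytosol, were lower at -0.24 (0.0189) and -0.29 (0.0491). Dropping any library with lipids, or replicate 2 without them, ended the calls for Man1a, Selenok, Fbxo6 and Tmx4. Dropping replicate 3 without lipids also ended that for Fbxo6. Over all 13 alternative fits Man1a was called in 9, Selenok in 8, Tmx4 in 6 and Fbxo6 in 3. With library totals alone Selenok, Tmx4 and Fbxo6 were lost (edgeR adjusted p = 0.0808, 0.109 and 0.110), and under median-of-ratios scaling and limma-voom Tmx4 and Fbxo6 were, narrowly (largest 0.0524). Of 9 genes for ATF6 cutting, its cofactors and related factors, 0 passed the edgeR test and 1, Creb3l1, had an unadjusted p under 0.05. They included the proteases Mbtps1 and Mbtps2, the NF-Y subunits, and Creb3, Creb3l1 and Creb3l2, which are separate factors. Dropping replicate 1 without lipids gave 5 higher and 4 lower folding genes and 3 higher and 9 lower ERAD genes, beside 27.2% of all genes. Of the 9 it gave 2 higher, Nfyb and Yy1, and 1 lower, Creb3l1.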

How the data were processed

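The authors deposited raw counts per Ensembl gene for 6 RNA-seq libraries. Per the labels' protocols, poly(A) RNA was used and the kit kept strand. TopHat2 2.1.0, HTSeq, DESeq2 and build GRCm38.p4 are listed, without roles, per the submitters' processing notes. The strand setting is not given in the sources used here. GENCODE M21 (GRCm38) supplied symbols, coordinates and exon lengths (46091 of 46603 identifiers matched).

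The test was run in edgeR 4.0.16 (R 4.3.3): filterByExpr (minimum count 10, minimum total 15), TMM scaling, a two-sided quasi-likelihood F test, Benjamini-Hochberg adjustment over 12767 genes, threshold 0.05. SE and 95% intervals came from the F statistic. CPM are TMM-scaled, with log2 CPM at a prior count of 2, and RPKM divide CPM by exon length. On simulated counts over 12767 genes for this comparison, the test recovered 30% of 50 genes given a 1.25-fold change, 78% of 50 given 1.5-fold and 94% of 50 given 2-fold, and made 13 false calls among 163. The simulation gave both groups the same spread and changed fewer genes than the 11.5% that passed here. In the data the median coefficient of variation was 9.44% without and 5.14% with lipids, so recovery there may differ.

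Groups and replicate numbers came from the sample titles. No source says whether replicates came from separate mice or cultures. The p-values therefore rest on the spread among these 6 libraries, and that spread may be technical. Limits from a count of 0 cover counting error only. All libraries were kept, since no replicate pair matched within sampling noise. The members, lists and tests were chosen with earlier results of these data known. Genes given with full values were those past the threshold in the full fit or in one that left out a library, the smallest p of each role, a panel of members, and up to 3 genes in each direction from the further lists. Others were named after their values were seen. Alternatives were median-of-ratios scaling, library totals alone, no filter, 1 CPM in 3 libraries, DESeq2 1.42.0, limma-voom (limma 3.58.1), the replicate number as a block, an adjusted p of 0.01, each library left out, and Dnajc10 counted as ERAD. One marker result is not reported here.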

Additional observations from a re-analysis of the deposited data

How the results depend on the processing

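With an adjusted p of 0.01, 0 members were higher and 1 lower (background 5.17% of genes). Scaling by library totals alone gave 3 higher, Hsp90b1, Pdia3 and Pdia4, and 1 lower, Edem2 (background 14.4% of genes), with medians of 0.114 for folding and 0.0258 for ERAD. Fits that left out a library gave 0 to 4 higher and 0 to 5 lower, while the background in those fits ran from 4.96% to 27.2% of genes. Their folding medians were 0.0148 to 0.0709 and their ERAD medians -0.0626 to -0.0125. Under median-of-ratios scaling, no filter, 1 CPM in 3 libraries, DESeq2 and limma-voom Pdia4, Edem1 and Edem2 passed (background 9.82% to 12.6% of genes). Counting Dnajc10 as ERAD moved the medians by less than the spread between libraries. With the replicate number as a block, 0 were higher and 2 lower (background 12.9% of genes), since Pdia4 did not pass (edgeR adjusted p = 0.0506). Same-numbered libraries deviated from their group means with correlations of -0.0141, -0.0874 and 0.176, the last the largest of any pair across the groups. Replicate 2 with lipids and replicate 1 without gave 0.155, and replicate 1 with lipids and replicate 2 without gave 0.105. Deviations within a group of 3 sum to 0, so these values cannot settle whether the numbers pair the libraries. None of the named genes reversed a called direction under these settings. Depth limits Derl3 most among the members.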
